A study of Homo sapiens with 16 samples.

Results

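The integrin and focal adhesion genes are 37 genes that were taken by symbol from the 56832 gene names of a count table of 2 human small cell lung cancer lines. They comprise 11 integrin alpha chains (without ITGA6), 6 integrin beta chains (without ITGB4), 4 talins and kindlins, 3 genes of the complex of ILK, parvin and PINCH, 10 actin-linking adaptors and 3 signalling proteins. Of the 37 genes, 36 were among the 23100 names that passed the filter on low counts. The gene left out was ITGA8, which had 3 counts in 1 H69 library and 0 in each of the others. RNA was sequenced from H69M and H69 cells, each carrying a stable lentiviral shRNA against EIF6 (sheIF6, labelled eIF6 knockdown) or a control shRNA (shNTC, labelled WT), and both lines were grown in RPMI medium with fetal bovine serum. H69 is an established line of small cell lung cancer. How H69M was obtained, and whether the shRNA cells are clones or pools, is not given in the labels, which call both lines small cell lung cancer cells. From each of the 4 combinations of line and shRNA, RNA bound to polysomes and cytoplasmic RNA were sequenced in 2 libraries each, which makes 8 groups and 16 libraries. The groups are H69M sheIF6 polysomal, H69M shNTC polysomal, H69M sheIF6 cytoplasmic and H69M shNTC cytoplasmic RNA, and the same 4 groups of H69. The labels do not say whether the 2 libraries of a group came from separate cultures, so p-values measure the spread between these libraries, which may be technical.

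Integrins are cell surface receptors made of an alpha and a beta chain, and the pair of chains decides which matrix protein or cell surface ligand is bound. Talin and kindlin bind the tail of the beta chain inside the cell and switch the receptor to its active form. Vinculin, alpha-actinin, filamin, tensin, zyxin and related adaptors then tie the receptor to actin filaments in focal adhesions, where SRC and BCAR1 pass on signals. Classic small cell lung cancer lines such as H69 grow mostly as floating aggregates, whereas focal adhesions form in cells that spread on a surface.

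The promoters of 3 genes are printed because these genes are a receptor chain and 2 actin-linking adaptors that were higher in H69M in all 4 comparisons of the lines, and because each holds a searched motif. The sequences are from RefSeq on build GRCh38.p14 and run from 250 bases before to 50 bases after the annotated start, and 30 of the 37 genes had an entry. Capitals mark GGAATG (a TEAD motif) in ITGA5 and VCL, TGANTCA (an AP-1 motif) in ITGA5 and the CArG box (a motif of serum response factor) in FLNA. ITGA5, the fibronectin receptor chain, lies on the minus strand with its window at chr12:54419217-54419516. VCL, which encodes vinculin, has its window on the plus strand at chr10:73997866-73998165. FLNA, which encodes filamin A, has its window on the minus strand at chrX:154374585-154374884.
ITGA5: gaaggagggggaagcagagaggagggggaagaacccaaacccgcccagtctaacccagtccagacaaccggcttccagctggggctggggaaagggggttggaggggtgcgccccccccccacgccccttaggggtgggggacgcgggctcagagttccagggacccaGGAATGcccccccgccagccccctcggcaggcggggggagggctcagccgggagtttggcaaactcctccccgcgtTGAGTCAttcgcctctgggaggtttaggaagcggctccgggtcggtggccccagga
VCL: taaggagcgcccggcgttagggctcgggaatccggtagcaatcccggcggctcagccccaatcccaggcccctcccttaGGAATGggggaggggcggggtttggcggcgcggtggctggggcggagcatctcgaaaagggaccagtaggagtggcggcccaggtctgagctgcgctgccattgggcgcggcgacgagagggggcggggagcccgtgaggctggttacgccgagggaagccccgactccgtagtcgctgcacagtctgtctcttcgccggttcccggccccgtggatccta
FLNA: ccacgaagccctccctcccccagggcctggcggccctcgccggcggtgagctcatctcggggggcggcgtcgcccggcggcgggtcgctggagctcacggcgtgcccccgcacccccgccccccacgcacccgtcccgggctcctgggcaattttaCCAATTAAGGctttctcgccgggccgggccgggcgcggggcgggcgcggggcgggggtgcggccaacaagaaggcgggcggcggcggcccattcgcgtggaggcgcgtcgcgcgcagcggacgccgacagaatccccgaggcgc

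Both strands were searched for 5 motifs in these windows. In ITGA5 the first base of GGAATG was at position -82 relative to the start and that of TGANTCA at -6, in VCL GGAATG was at -171, and in FLNA the CArG box was at -94. GGAATG occurred in 4 of the 30 windows (13.3%; ITGA10, ITGB1, VCL and ITGA5) and in 14% of all 27305 promoters. TGANTCA occurred in 3 windows (10.0%; ITGA5, BCAR1 and ACTN4) and in 7.76% of all promoters, and the CArG box in 2 (6.67%; FLNA and ITGB6) and in 1.29%. GGGCGG, the GC box, was in 19 windows (63.3%) and in 44.6% of all promoters, and TATAAA was in 0 windows and in 12% of all promoters. The median GC content was 71.3% in the 30 windows and 58.3% over all promoters. These matches describe letters in the windows and carry no measure of binding.

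Total counts ran from 36005326 to 87269772 per library, and levels are given as CPM (counts scaled to a common library total) after scaling between libraries with edgeR's trimmed mean of M-values (TMM). EIF6, the target of sheIF6, was at 86.3 and 136 CPM with sheIF6 and 323 and 202 CPM with shNTC in H69M polysomal RNA, and at 161 and 96.3 CPM against 204 and 165 CPM in H69M cytoplasmic RNA. In H69 it was at 234 and 219.8 CPM with sheIF6 against 424 and 389 CPM with shNTC in polysomal RNA, and at 65.0 and 67.7 CPM against 116 and 112 CPM in cytoplasmic RNA. These levels were 42.4%, 69.9%, 55.9% and 58.1% of control. The sheIF6 libraries lay below the shNTC libraries in each of the 4 settings, and EIF6 did not pass edgeR's quasi-likelihood test in any of them (adjusted p = 0.204, 0.547, 0.956 and 1 in the same order). DESeq2 called it in H69M polysomal RNA (adjusted p = 0.0149). The 10 markers of neuroendocrine small cell lung cancer summed to 746 to 1505 CPM in H69M libraries and to 2331 to 5141 CPM in H69 libraries. The neuroendocrine genes INSM1 and CHGA were lower still in H69M relative to H69, and they do not stand for the 10 markers, whose sum was reduced less. Replicate 2 was higher for both genes in each H69M group. As a percentage of H69 shNTC RNA of the same fraction, INSM1 was at 0.337% and 13.54% in H69M shNTC polysomal replicates 1 and 2. CHGA was at 0.370% and 5.20% there. The summed markers did not follow this order in cytoplasmic RNA, where replicate 1 was higher with either shRNA. The cause of this replicate difference was not tested. The 10 fibroblast markers summed to 10823 to 39563 CPM in H69M and to 119 to 516 CPM in H69. COL1A1, given below, held much of this sum in H69M shNTC cytoplasmic RNA. Of the 10 markers 2 were under 1 CPM in both libraries of each H69M shNTC group. With sheIF6 this held for 1 marker in each H69M group, and in H69 for 6 or 7 in each group. Fewer cells of a type and less RNA per cell cannot be told apart in such bulk samples, and the part of these markers in the differences between the lines was not tested. H69 shNTC cytoplasmic replicate 1 stood apart from the other H69 libraries: 4 endothelial markers summed to 18.6 CPM there, led by VWF, against 0.526 to 4.16 CPM in the other H69 libraries and 7.04 to 27.6 CPM in H69M. The H69M sums were mostly VWF (6.35 to 24.9 CPM). PECAM1, CDH5 and KDR were at 4.18, 3.92 and 1.27 CPM in that H69 library, above their highest H69M levels of 0.692, 2.02 and 0.883 CPM. LYZ, a leukocyte marker, was at 6.56 CPM there and at most 1.12 CPM in H69M. That library also held 18.7 CPM of FN1 and 17.9 CPM of VIM, against 0.720 and 0.12 CPM in replicate 2 of its group. Leukocyte markers summed to 11.6 CPM there, against 3.51 to 6.92 CPM in the other H69 libraries. Of 6 genes listed because they are high in H69M and near 0 in H69, KRT17, F2RL2, COL5A3 and PRRX1 were at 0 in it. Their low level in an H69 library was largely set by that choice. Whether this library held RNA of other cells was not tested. AXL was at 0.419% and YAP1 at 0.181% of their H69M level. The 6 genes summed to 1.35 CPM there, the highest of the H69 libraries.

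Integrin and focal adhesion genes were higher in H69M than in H69. They were chosen with earlier results of these data known, so their counts beside the shares of all genes describe the list only. In shNTC cytoplasmic RNA 30 of the 36 genes were higher and 1 was lower in edgeR's quasi-likelihood test with Benjamini-Hochberg adjustment over 23100 genes at 0.05, while 16.2% of all genes were called higher and 14.1% lower (30.2% in all). In shNTC polysomal RNA the same 30 genes were higher and 0 were lower, against 18.4% of all genes called higher and 15.6% lower (34% in all). The median log2 change of the 36 genes was 2.81 in cytoplasmic and 3.44 in polysomal RNA, beside -0.0063 and 0.0231 over all genes. Both H69M libraries lay above both H69 libraries for 32 genes in each fraction, and below them for 2 genes, against 33.5% and 34.7% of all genes (cytoplasmic) and 33.1% and 31.2% of all genes (polysomal). By role, 9 of 10 alpha chains, 4 of 6 beta chains, 3 of 4 talins and kindlins, 2 of 3 ILK complex genes, 10 of 10 adaptors and 2 of 3 signalling genes were higher in both fractions.

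**Figure D1:**
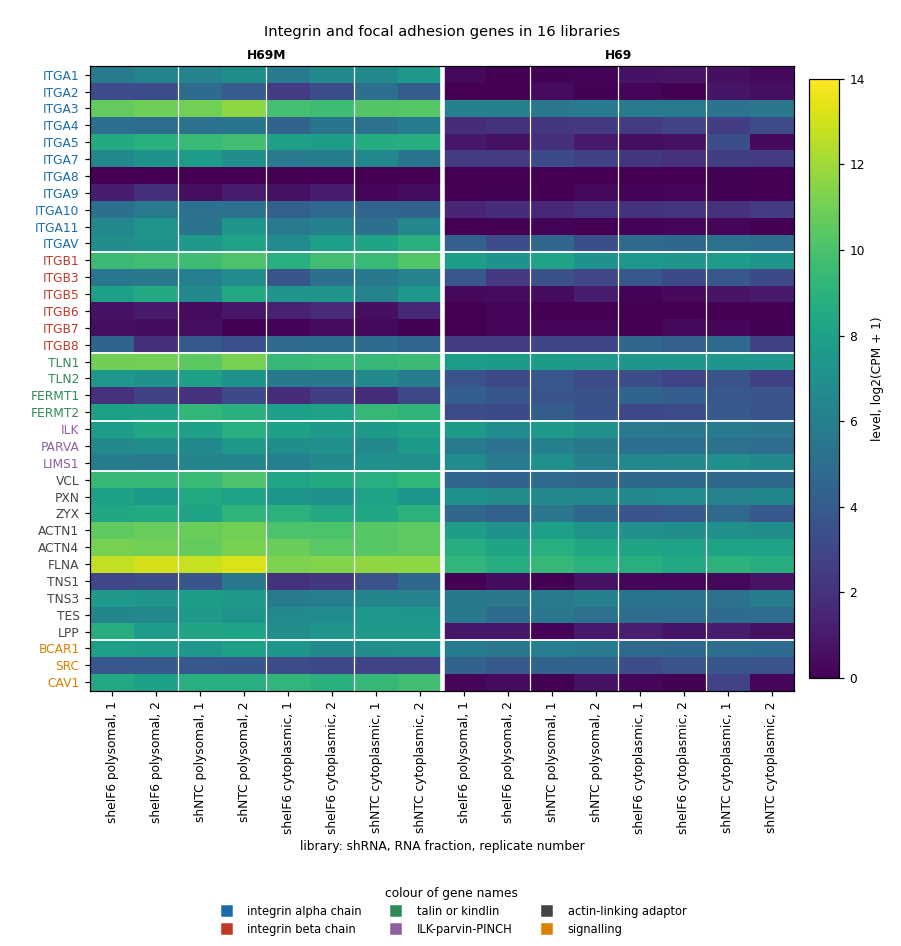
Levels of the integrin and focal adhesion genes in the 16 libraries as log2(CPM + 1), with genes grouped by role on the vertical axis and libraries on the horizontal axis, H69M left of H69. Lighter shades mark higher levels. Most rows of alpha chains and adaptors and the row of CAV1 are lighter across the 8 H69M libraries than across the 8 H69 libraries. LIMS1 and SRC differ little in shade.

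Of the 10 tested alpha chains 9 were higher in H69M, with log2 changes from 2.51 for ITGA10 to 9.23 for ITGA11 in shNTC cytoplasmic RNA. ITGA11, a collagen receptor chain, had 35.0 and 86.8 CPM in H69M, against 0.195 and 0 CPM in H69 in shNTC cytoplasmic RNA, a log2 change of 9.23 (SE 1.15; edgeR adjusted p = 0.000192). ITGA1, another collagen-binding chain, had 102 and 183 CPM in H69M, against 0.468 and 0.240 CPM in H69, a log2 change of 8.64 (SE 0.76; edgeR adjusted p = 9.05e-06). Both chains were below 1 CPM in each H69 library of this comparison and above 30 CPM in each H69M library. ITGA5, which pairs with ITGB1 to bind fibronectin, had 402 and 419.9 CPM in H69M, against 9.21 and 0.260 CPM in H69, a log2 change of 6.44 (SE 1.15; edgeR adjusted p = 0.00169). The level in H69 was set by the library that stands apart: without H69 shNTC cytoplasmic replicate 1 the log2 change of ITGA5 was 10.61, and the fitted one of ITGA11, then against a library at 0, was 14.47. ITGA2, a collagen receptor chain of epithelial cells and platelets, had 33.0 and 16.4 CPM in H69M, against 0.722 and 0.480 CPM in H69 (log2 change 5.35, SE 0.92; edgeR adjusted p = 0.00113). ITGA3, a laminin receptor chain of epithelia, had 1221 and 1277 CPM in H69M, against 38.7 and 46.2 CPM in H69 (log2 change 4.88, SE 0.27; edgeR adjusted p = 3.93e-07). ITGA7, a laminin receptor chain of muscle, had 91.3 and 43.1 CPM in H69M, against 5.00 and 4.48 CPM in H69 (log2 change 3.82, SE 0.41; edgeR adjusted p = 2.34e-05). For all of these chains the libraries of the lines did not overlap. ITGAV (the chain of vitronectin receptors), ITGA4 (a receptor of VCAM1 and fibronectin) and ITGA10 (a collagen receptor chain of cartilage) were also higher, with log2 changes of 3.47, 2.89 and 2.51. ITGA9 was near 0 in this comparison, with 0.125 and 0.396 CPM in H69M, against 0.0586 and 0.02 CPM in H69, and was not called (edgeR adjusted p = 0.157).

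Polysomal RNA of shNTC cells gave the same order of the lines. ITGA5 had 703 and 864 CPM in H69M, against 2.84 and 1.04 CPM in H69 (log2 change 8.66, SE 1.28; edgeR adjusted p = 0.000481). ITGA3 had 2105 and 3119 CPM in H69M, against 45.3 and 56.7 CPM in H69 (log2 change 5.68, SE 0.28; edgeR adjusted p = 2.26e-07). ITGA1 had 71.9 and 124 CPM in H69M, against 0.0526 and 0.0990 CPM in H69 (log2 change 10.28, SE 0.87; edgeR adjusted p = 6.87e-06). No H69 library of polysomal shNTC RNA reached 3 CPM of ITGA5 or 0.1 CPM of ITGA1. ITGA11 and ITGA2 changed by 10.92 and 6.94, and ITGA7, ITGA10, ITGAV and ITGA4 by 4.61, 3.84, 3.81 and 3.35 on the log2 scale.

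The median log2 change in shNTC cytoplasmic RNA was 2.45 over the 6 beta chains, against 4.35 over the 10 tested alpha chains. ITGB1, the common partner of most alpha chains, had 724 and 1158 CPM in H69M, against 209 and 162 CPM in H69 (log2 change 2.34, SE 0.40; edgeR adjusted p = 0.000715) and a log2 change of 2.22 (SE 0.39) in polysomal RNA. ITGB5, a partner of ITGAV, had 74.7 and 177 CPM in H69M, against 0.683 and 0.98 CPM in H69 (log2 change 7.24, SE 0.78; edgeR adjusted p = 3.89e-05). ITGB3, the other classic vitronectin receptor chain, had 49.6 and 73.4 CPM in H69M, against 13.2 and 7.74 CPM in H69 (log2 change 2.56, SE 0.59; edgeR adjusted p = 0.00641), and its call was lost without H69 shNTC cytoplasmic replicate 2 (2.22; adjusted p = 0.0651). The H69M libraries lay above the H69 libraries for each of these 3 chains. In the GENCODE annotation about 51.6% of the exon length of ITGB3 is shared with AC068234.1, another gene on the same strand. AC068234.1 is not among the gene names of the counts. Whether ITGB3 lost reads to it is therefore not known, and the count of ITGB3 is uncertain. ITGB6, a chain of epithelial cells that binds latent TGF-beta, had 0.500 and 1.92 CPM in H69M, against 0 and 0 CPM in H69. With 93 counts in H69M and 0 in H69, it was at least 40.3-fold higher in H69M, taking a floor of 3 counts over the group, and in polysomal RNA it was at least 15.8-fold higher (48 counts against 0). In polysomal RNA its edgeR call (adjusted p = 0.0118) was lost without H69 shNTC polysomal replicate 1 (0.0537) or replicate 2 (0.0534). ITGB8, an ITGAV partner of epithelia and brain, had 29.7 and 22.8 CPM in H69M, against 26.3 and 5.48 CPM in H69 and was not called (log2 change 0.72, SE 0.77; edgeR adjusted p = 0.52). ITGB7, a chain of lymphocytes, had 0.250 and 0.0527 CPM in H69M, against 0.176 and 0.04 CPM in H69.

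Among the proteins that activate integrins, FERMT2 (kindlin-2, the widely expressed kindlin) had 645 and 568 CPM in H69M, against 14.2 and 11.6 CPM in H69 in shNTC cytoplasmic RNA, a log2 change of 5.55 (SE 0.29; edgeR adjusted p = 3.85e-07), and of 5.33 (SE 0.29) in polysomal RNA. TLN1 (talin-1) had 645 and 733 CPM in H69M, against 162 and 166 CPM in H69 in cytoplasmic RNA (log2 change 2.07, SE 0.24; edgeR adjusted p = 4.09e-05) and 1399.5 and 2261 CPM in H69M, against 194 and 182 CPM in H69 in polysomal RNA (log2 change 3.28, SE 0.25; edgeR adjusted p = 2.03e-06). TLN2 (talin-2) had 104 and 61.1 CPM in H69M, against 11.2 and 5.86 CPM in H69 in cytoplasmic RNA (log2 change 3.27, SE 0.43). All 3 were higher in H69M with no overlap of libraries. FERMT1 (kindlin-1, the kindlin of epithelial cells) went the other way, with 2.62 and 7.12 CPM in H69M, against 12.9 and 11.8 CPM in H69, and its difference did not pass the test in shNTC RNA (cytoplasmic log2 change -1.34, SE 0.55, edgeR adjusted p = 0.0835; polysomal -1.06, SE 0.55, 0.151). With a replicate block within line FERMT1 was called lower in shNTC RNA too (-1.50, SE 0.26, adjusted p = 0.000657 in cytoplasmic and -1.20, SE 0.26, 0.0029 in polysomal RNA). The error of that fit leaves out the spread between the replicates of a line. In sheIF6 cells FERMT1 was lower in H69M in both fractions: it had 2.56 and 5.15 CPM in H69M, against 21.9 and 17.1 CPM in H69 in cytoplasmic RNA (log2 change -2.34, SE 0.56; edgeR adjusted p = 0.00722) and 2.97 and 5.80 CPM in H69M, against 17.3 and 12.2 CPM in H69 in polysomal RNA (log2 change -1.75, SE 0.55; edgeR adjusted p = 0.0265). These calls were lost without H69M sheIF6 cytoplasmic replicate 1 (-1.91; 0.086), and without H69 sheIF6 polysomal replicate 1 (-1.48; 0.126) or H69M sheIF6 polysomal replicate 1 (-1.34; 0.195). The H69M libraries were nonetheless below the H69 libraries of the same fraction and shRNA in all 4 comparisons.

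ILK, a pseudokinase that couples beta chains to actin, had 200.4 and 269.5 CPM in H69M, against 51.2 and 45.6 CPM in H69 in shNTC cytoplasmic RNA (log2 change 2.28, SE 0.37; edgeR adjusted p = 0.000498) and 253 and 439 CPM in H69M, against 186 and 131 CPM in H69 in polysomal RNA (log2 change 1.13, SE 0.35; edgeR adjusted p = 0.0263). PARVA (alpha-parvin, its actin-binding partner) had 97.2 and 199 CPM in H69M, against 37.3 and 30.7 CPM in H69 in cytoplasmic RNA (log2 change 2.12, SE 0.35; edgeR adjusted p = 0.000663) and 103 and 185 CPM in H69M, against 67.3 and 50.4 CPM in H69 in polysomal RNA (log2 change 1.29, SE 0.35; edgeR adjusted p = 0.0123). Their polysomal calls rested on single libraries: without H69M shNTC polysomal replicate 2 the log2 changes were 0.68 for ILK (adjusted p = 0.214) and 0.80 for PARVA (0.125), and without H69 shNTC polysomal replicate 2 they were 0.90 (0.164) and 1.09 (0.0929). LIMS1 (PINCH-1), the other protein of the complex, was at like levels in the lines, with 129 and 129 CPM in H69M, against 128 and 97.6 CPM in H69 in cytoplasmic RNA (log2 change 0.19, SE 0.33; edgeR adjusted p = 0.709) and a log2 change of -0.28 (SE 0.34) in polysomal RNA. Near-identical LIMS copies in the genome make its count uncertain. ILK exons overlap those of TAF10 on the opposite strand over 68.1% of their length, and with a kit that does not mark strand the reads of both genes cannot be told apart there. TAF10 itself did not pass the test between the lines (cytoplasmic log2 change 0.37, edgeR adjusted p = 0.389).

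All 10 adaptors were higher in H69M in shNTC RNA of both fractions. LPP, a zyxin relative of smooth muscle and fibroblasts, had 188 and 192 CPM in H69M, against 1.09 and 0.560 CPM in H69 in shNTC cytoplasmic RNA, a log2 change of 7.84 (SE 0.71; edgeR adjusted p = 1.08e-05). TNS1 (tensin-1) had 10.8 and 25.1 CPM in H69M, against 0.234 and 0.640 CPM in H69 (log2 change 5.35, SE 1.28; edgeR adjusted p = 0.00804), which was not called without H69 shNTC cytoplasmic replicate 1 (4.81; 0.0849). VCL (vinculin) had 436 and 624 CPM in H69M, against 25.3 and 25.5 CPM in H69 in cytoplasmic RNA (log2 change 4.38, SE 0.28; edgeR adjusted p = 8.89e-07) and 719.6 and 1092 CPM in H69M, against 26.5 and 23.2 CPM in H69 in polysomal RNA (log2 change 5.19, SE 0.29). Each H69M library held at least 10 times the CPM of LPP, TNS1 and VCL found in either H69 library of shNTC cytoplasmic RNA. Without H69 shNTC polysomal replicate 2 the fitted polysomal change of TNS1 was 13.48, against 6.83 with all libraries. ZYX (zyxin) had 297 and 512 CPM in H69M, against 26.7 and 13.9 CPM in H69 (log2 change 4.32, SE 0.49; edgeR adjusted p = 3.64e-05). ACTN1 (alpha-actinin-1) had 1298 and 1470.1 CPM in H69M, against 131 and 119 CPM in H69 (log2 change 3.46, SE 0.30; edgeR adjusted p = 6.20e-06). FLNA (filamin A) had 3222 and 3190.2 CPM in H69M, against 538 and 425 CPM in H69 in cytoplasmic RNA (log2 change 2.73, SE 0.29; edgeR adjusted p = 2.20e-05) and 7129.6 and 9618 CPM in H69M, against 644 and 489 CPM in H69 in polysomal RNA (log2 change 3.89, SE 0.30). TES, ACTN4 and PXN (paxillin) had log2 changes of 2.49, 2.35 and 1.49 in cytoplasmic RNA and of 2.02, 2.34 and 1.66 in polysomal RNA. TNS3 (tensin-3) had 82.0 and 73.8 CPM in H69M, against 38.3 and 59.7 CPM in H69 in cytoplasmic RNA (log2 change 0.67, SE 0.24; edgeR adjusted p = 0.0476), the weakest call of the group. It was lost under total library size scaling (0.53; 0.184) and without most single libraries, at its lowest without H69 shNTC cytoplasmic replicate 1 (0.39; 0.373), and was 1.02 (0.0221) without replicate 2 of that group. In polysomal RNA TNS3 had 218 and 182 CPM in H69M, against 50.6 and 68.3 CPM in H69 and a log2 change of 1.75 (SE 0.24; edgeR adjusted p = 0.000172).

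Of the signalling genes, CAV1 (caveolin-1, the coat protein of caveolae and a binding partner of integrins) had 652 and 827 CPM in H69M, against 5.99 and 0.160 CPM in H69 in shNTC cytoplasmic RNA (log2 change 7.91, SE 1.34; edgeR adjusted p = 0.00117). In polysomal RNA it had 447 and 439 CPM in H69M, against 0 and 0.520 CPM in H69 (log2 change 10.69, SE 1.55; edgeR adjusted p = 0.000433). CAV1 was far above every H69 library in each of these H69M libraries, and below 1 CPM in each H69 library but H69 shNTC cytoplasmic replicate 1, and its log2 change was 12.15 without that library. Without H69 shNTC polysomal replicate 2, which leaves a library with 0 counts, the fitted polysomal change was 17.36. BCAR1 (p130Cas, a SRC substrate in focal adhesions) had 122 and 129 CPM in H69M, against 31.3 and 29.2 CPM in H69 in cytoplasmic RNA (log2 change 2.05, SE 0.26; edgeR adjusted p = 9.35e-05). SRC had 6.0 and 6.14 CPM in H69M, against 12.6 and 10.8 CPM in H69 and was lower in H69M (log2 change -0.95, SE 0.27; edgeR adjusted p = 0.0173), which made it the 1 gene called lower in shNTC cytoplasmic RNA. That call was lost without H69 shNTC cytoplasmic replicate 1 (-0.83; 0.121), H69M shNTC cytoplasmic replicate 1 (-0.93; 0.0946) or H69M shNTC cytoplasmic replicate 2 (-0.97; 0.0746). In polysomal RNA SRC had 12.9 and 12.6 CPM in H69M, against 21.2 and 20.4 CPM in H69 and did not pass the test (log2 change -0.71, SE 0.27; edgeR adjusted p = 0.0564).

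**Figure D2:**
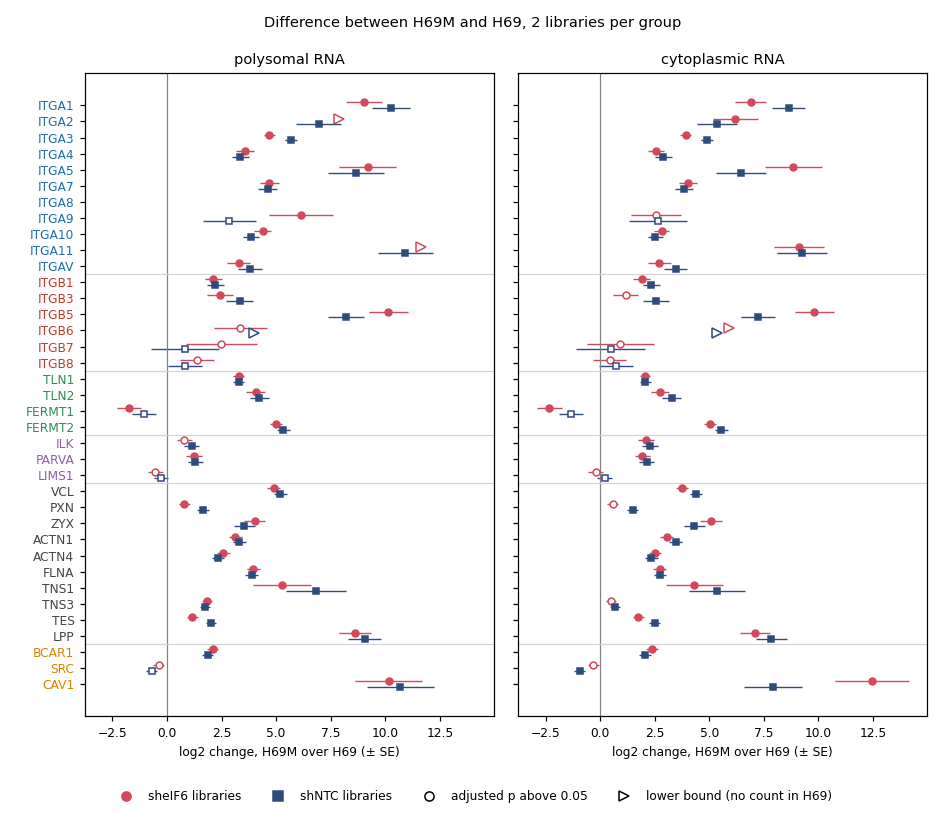
Log2 change of each gene in H69M over H69 with its standard error, in polysomal and cytoplasmic RNA, for sheIF6 (circles) and shNTC (squares) libraries, 2 libraries a group. Open symbols did not pass an adjusted p of 0.05, and triangles are lower bounds against groups at 0. Most points lie to the right of 0 in both panels, while LIMS1, SRC and FERMT1 lie near or left of it.

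The lines were also compared in sheIF6 cells, which share no library with the shNTC cells. Both comparisons set the same 2 lines against each other and use a shared estimate of the spread. They are therefore not independent, and shared calls are no replication of the difference between the lines. In sheIF6 cytoplasmic RNA 27 genes were higher and 1 was lower in H69M (16.9% and 14.6% of all genes), and in sheIF6 polysomal RNA 29 were higher and 1 was lower (19% and 17.3%). The median log2 change of the genes was 2.72 and 3.47, beside 0.0233 and 0.0242 over all genes. The 27 genes higher in sheIF6 cytoplasmic RNA were all among the 30 of shNTC cytoplasmic RNA, which is 100% of the sheIF6 and 90% of the shNTC list. In polysomal RNA 28 genes were shared (96.6% of the sheIF6 and 93.3% of the shNTC list), and 25 genes were higher in H69M in all 4 comparisons. The largest change in sheIF6 cytoplasmic RNA was that of CAV1, with 589.7 and 465 CPM in H69M, against 0.144 and 0.0408 CPM in H69 (log2 change 12.44, SE 1.68; edgeR adjusted p = 0.000282). In sheIF6 polysomal RNA ITGA11 had 87.4 and 151 CPM in H69M, against 0 and 0 CPM in H69, which is at least 3227-fold higher in H69M, and ITGA2 had 8.75 and 8.52 CPM in H69M, against 0 and 0 CPM in H69, at least 232-fold higher. Both folds take a floor of 3 counts over the H69 group. ITGA9, a chain that binds tenascin and VCAM1, was called in sheIF6 polysomal RNA with 1.18 and 2.70 CPM in H69M, against 0 and 0.0487 CPM in H69. That is 172 counts in H69M against 2 in H69, a ratio of 78.9 with a 95% counting interval of 21.5 to 657, and leaving out H69 sheIF6 polysomal replicate 1 ended its call (log2 change 5.24; adjusted p = 0.0531), while the change was 9.52 (0.0216) without replicate 2. Fitted changes against groups near 0 also moved elsewhere: ITGA2 was at 11.35 in cytoplasmic RNA without H69 sheIF6 cytoplasmic replicate 1, against 6.20 with all libraries, and ITGA1 at 14.61 in polysomal RNA without H69 sheIF6 polysomal replicate 1, against 9.02. TNS1 in polysomal RNA, at 5.25 with all libraries, was lost without H69 sheIF6 polysomal replicate 1 (4.28; 0.0543) and was at 11.49 without replicate 2.

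Some genes were called between the lines with one shRNA and not with the other. ITGB3, PXN and TNS3 were called in shNTC and not in sheIF6 cytoplasmic RNA. In sheIF6 cytoplasmic RNA ITGB3 had 12.6 and 35.0 CPM in H69M, against 13.2 and 7.93 CPM in H69 (log2 change 1.17; edgeR adjusted p = 0.141) and PXN had 165 and 140.3 CPM in H69M, against 99.8 and 106 CPM in H69 (0.57; 0.11). TNS3 had a log2 change of 0.49 there (adjusted p = 0.136). The difference between the line change with sheIF6 and that with shNTC was -1.39 (SE 0.80) for ITGB3, -0.92 (SE 0.36) for PXN and -0.18 (SE 0.33) for TNS3, and none passed edgeR's test (adjusted p = 1, 0.936 and 1). For FERMT1 and SRC, called lower in H69M with 1 shRNA each in cytoplasmic RNA, this difference was -1.0 (SE 0.76) and 0.63 (SE 0.37) (adjusted p = 1 and 1). In sheIF6 RNA the calls of 4 further genes rested on single libraries: TNS1 in cytoplasmic RNA was lost without either H69 sheIF6 cytoplasmic library (4.25 and 4.40; 0.156 and 0.139) or either H69M one (4.45 and 4.19; 0.0612 and 0.0599). In polysomal RNA ITGB3 was lost without H69 sheIF6 polysomal replicate 2 (1.82; 0.0541), PARVA without that library (1.00; 0.115) or H69M sheIF6 polysomal replicate 2 (1.11; 0.0679), and PXN without H69 sheIF6 polysomal replicate 1 (0.91; 0.0679), replicate 2 (0.66; 0.167) or H69M sheIF6 polysomal replicate 1 (0.63; 0.175).

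Levels per kilobase of exon allow the chains to be compared with each other. The summed level of the 11 alpha chains in shNTC cytoplasmic RNA was 249 and 281 CPM per kb in H69M, against 11.8 and 11.1 CPM per kb in H69. In shNTC polysomal RNA it was 385 and 519 CPM per kb in H69M, against 9.91 and 8.97 CPM per kb in H69. The 6 beta chains summed to 145 and 239 CPM per kb in H69M cytoplasmic shNTC RNA, against 39.7 and 29.2 CPM per kb in H69. In shNTC cytoplasmic RNA the sum of the listed alpha chains was thus below that of the listed beta chains in H69 and at or above it in H69M. ITGA6 and ITGB4 are not in these sums, so they do not give all alpha against all beta chain RNA. Per length, ITGA3 made up 48.3 ± 2.61% of the alpha chain sum in H69M, against 38 ± 6.43% in H69, in shNTC cytoplasmic RNA (SD, n = 2 each). Its share was 58.5 ± 3.84% in H69M, against 55.5 ± 12.6% in H69, in shNTC polysomal RNA. The order was the other way in sheIF6 RNA. Its share was 52.3 ± 7.03% in H69M, against 53 ± 1.22% in H69, in sheIF6 cytoplasmic RNA. It was 60.5 ± 2.04% in H69M, against 68.9 ± 5.48% in H69, in sheIF6 polysomal RNA. The shares that follow are those of shNTC cytoplasmic RNA. ITGAV made up 17.4 ± 4.49% in H69M, against 36.7 ± 3.45% in H69. ITGA5 made up 20.5 ± 1.12% in H69M, against 5.31 ± 7.07% in H69, where the SD exceeds the mean and replicate 1 holds nearly all of it. Among beta chains ITGB1 took 81.8 ± 1.49% in H69M, against 89.95 ± 3.17% in H69. ITGB5 took 9.72 ± 2.49% in H69M and a mean of 0.393% in H69. No test was made of these shares.

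**Figure D3:**
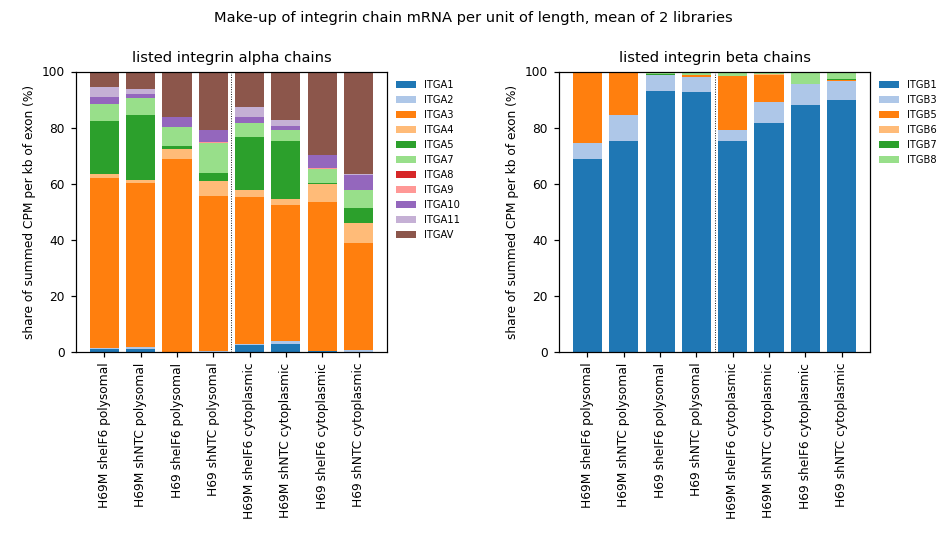
Make-up of the integrin chains as a percentage of the summed CPM per kilobase of the alpha chains and of the beta chains, mean of 2 libraries for each of the 8 groups, H69M left of H69. ITGA3, ITGA5 and ITGAV fill most of the alpha bars in H69M, ITGA3 and ITGAV most of those in H69, and ITGB1 takes the larger part of each beta bar.

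The knockdown of EIF6 was compared with shNTC in each line and fraction. Of the 36 genes 0 were called by edgeR in all 4 settings, while 0.0303% of all genes were called higher and 0.0346% lower in H69M polysomal RNA (0.0649% in all), and 0.0909% higher and 0.0649% lower in H69M cytoplasmic RNA (0.156% in all). In H69 polysomal RNA 0.00433% of all genes were called, all lower, and in H69 cytoplasmic RNA 0%. An unadjusted p under 0.05 was reached by 3, 7, 2 and 5 of the genes in these settings, beside 8.15%, 11%, 4.14% and 3.01% of all genes. DESeq2 called 2 genes in H69M polysomal RNA (1.85% of all genes) and 1 in H69M cytoplasmic RNA (2.65%). It called 0 in either fraction of H69 (0.494% in polysomal and 0.382% in cytoplasmic RNA). The median log2 change of the 36 genes was -0.29 in H69M polysomal and -0.41 in H69M cytoplasmic RNA, and -0.21 in H69 polysomal and -0.14 in H69 cytoplasmic RNA (there over the 35 genes with a value), beside -0.0128, 0, 0 and -0.0081 over all genes. Both sheIF6 libraries lay below both shNTC libraries for 15 genes in H69M polysomal RNA (16.7% of all genes) and for 17 in H69M cytoplasmic RNA (19.3%), and above them for 1 (15.9%) and 2 (20.4%). In H69 they lay below for 9 genes in polysomal RNA (11.3%) and 10 in cytoplasmic RNA (17.6%), and above for 4 (11.4%) and 5 (16.7%).

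FERMT2, at chr14:52857268-52952435 on the minus strand of GRCh38 in the GENCODE annotation, had the lowest p of the genes in H69M, and this kindlin-2 gene was chosen here after its values were seen. In H69M cytoplasmic RNA it had 235 and 273 CPM with sheIF6, against 645 and 568 CPM with shNTC, a log2 change of -1.26 (SE 0.24; edgeR adjusted p = 0.0694; DESeq2 adjusted p = 0.000293). In H69M polysomal RNA it had 251 and 254 CPM with sheIF6, against 623 and 475 CPM with shNTC, a log2 change of -1.12 (SE 0.24; edgeR adjusted p = 0.152; DESeq2 adjusted p = 0.00342). Both sheIF6 libraries stood well below both shNTC libraries in either fraction of H69M. In H69, where FERMT2 was low, it had 7.06 and 8.62 CPM with sheIF6, against 14.2 and 11.6 CPM with shNTC in cytoplasmic RNA (log2 change -0.72, SE 0.24) and 8.18 and 7.72 CPM with sheIF6, against 16.5 and 10.7 CPM with shNTC in polysomal RNA (log2 change -0.77, SE 0.24), again with no overlap and without passing edgeR's test (adjusted p = 1 and 0.801). The change in H69M minus that in H69 was -0.54 (SE 0.34) in cytoplasmic and -0.35 (SE 0.34) in polysomal RNA, with adjusted p = 1 for both in edgeR. TES, a LIM domain protein of focal adhesions that DESeq2 also called in polysomal RNA, had 84.2 and 90.7 CPM with sheIF6, against 187 and 152 CPM with shNTC in H69M polysomal RNA (log2 change -0.95, SE 0.24; edgeR adjusted p = 0.209; DESeq2 adjusted p = 0.0237). In H69M cytoplasmic RNA TES had 98.9 and 109 CPM with sheIF6, against 175 and 163 CPM with shNTC (log2 change -0.70, SE 0.23; edgeR adjusted p = 0.318). The other genes with an unadjusted p under 0.05 in H69M cytoplasmic RNA were VCL (-0.66), ITGA3 (-0.57), ITGB3 (-1.37), ITGAV (-1.15) and ITGA2 (-1.83), with edgeR adjusted p from 0.358 for VCL to 0.42 for ITGA2. The sheIF6 and shNTC libraries of H69M did not overlap for TES in either fraction.

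ITGA3, at chr17:50055968-50090481 on the plus strand of GRCh38, is named after its values were seen, because its order of sheIF6 and shNTC libraries was opposite in the lines. In H69M cytoplasmic RNA it had 889 and 797 CPM with sheIF6, against 1221 and 1277 CPM with shNTC, and in H69 cytoplasmic RNA 55.5 and 56.7 CPM with sheIF6, against 38.7 and 46.2 CPM with shNTC. In H69M polysomal RNA it had 1585 and 1889.9 CPM with sheIF6, against 2105 and 3119 CPM with shNTC, and in H69 polysomal RNA 66.7 and 67.7 CPM with sheIF6, against 45.3 and 56.7 CPM with shNTC. The sheIF6 libraries were below the shNTC libraries in H69M and above them in H69, with no overlap in any of the 4 settings. The log2 changes were -0.57 and -0.59 in H69M and 0.40 and 0.40 in H69, cytoplasmic before polysomal RNA, and the change in H69M minus that in H69 was -0.97 (SE 0.33) and -0.99 (SE 0.33). Neither difference passed edgeR's test over all genes (unadjusted p = 0.011 and 0.00994; adjusted p = 0.819 and 0.722). Of the 36 genes 0 were called for this difference between lines by edgeR or DESeq2 in either fraction (with edgeR 0.013% of all genes higher and 0.0173% lower in cytoplasmic RNA, 0.0303% in all, and 0.00433% in polysomal RNA), and 5 and 3 had an unadjusted p under 0.05 (4.93% and 5.09% of all genes). ITGA3, PXN and TES were among them in both fractions, with differences of -0.92 and -0.87 for PXN and -0.74 and -0.86 for TES.

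In H69 cytoplasmic RNA the largest fitted changes were those of CAV1 and ITGA5 and rested on the library that stands apart. CAV1 had 0.144 and 0.0408 CPM with sheIF6, against 5.99 and 0.160 CPM with shNTC (log2 change -5.02, SE 1.46; edgeR adjusted p = 0.835), and ITGA5 had 0.453 and 0.55 CPM with sheIF6, against 9.21 and 0.260 CPM with shNTC (log2 change -3.23, SE 1.09; edgeR adjusted p = 1). Without H69 shNTC cytoplasmic replicate 1 the log2 changes were -0.78 for CAV1 and 0.94 for ITGA5. Without replicate 2 they were -5.98 (edgeR adjusted p = 0.0283) and -4.19 (0.0087), the 2 calls of the genes in any left-out setting of the knockdown. ITGA2 in H69 polysomal RNA had 0 counts with sheIF6 and 14 with shNTC, at least 4.80-fold lower with a floor of 3 counts over the group. The shNTC libraries differed widely, at 0.0231 ± 0.0238 CPM per kb (SD, n = 2). The bound covers counting error only, and ITGA2 was not called. ITGB6 had no counts in either shRNA of H69 cytoplasmic RNA and is given no change there.

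**Figure D4:**
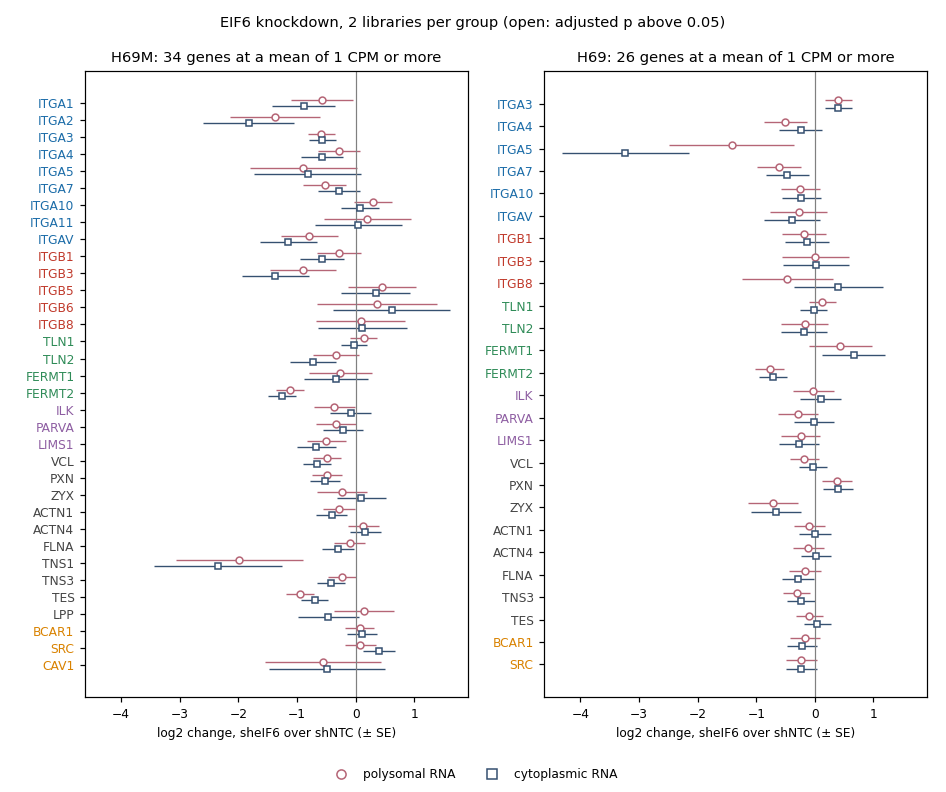
Log2 change of sheIF6 over shNTC with its standard error for the genes at a mean of 1 CPM or more (34 in H69M, 26 in H69), in polysomal (circles) and cytoplasmic (squares) RNA. No gene passed an adjusted p of 0.05, so all symbols are open. FERMT2 lies left of 0 in all 4 settings, and ITGA3 lies left of 0 in H69M and right of 0 in H69.

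Polysomal RNA was compared with cytoplasmic RNA of the same cells, as a gene's scaled level in polysomal RNA over that in cytoplasmic RNA. Each level is relative to the other genes of its library, so the change gives no absolute amount on polysomes. In H69M sheIF6 cells 5 of the 36 genes were higher in polysomal RNA and 0 lower, against 1.91% and 2.26% of all genes (4.17% in all). In H69M shNTC cells these were likewise 5 and 0, against 2.16% and 2.54% of all genes (4.7% in all). TLN1, FLNA, TNS3 and ITGA3 were called in both, which is 80% of each list. The comparisons share no library, but they share the estimate of the spread. TLN1, at chr9:35696948-35732395 on the minus strand of GRCh38, had 1961 and 2065 CPM in polysomal RNA, against 638 and 713 CPM in cytoplasmic RNA in sheIF6 cells (log2 change 1.57, SE 0.23; edgeR adjusted p = 0.00566) and 1399.5 and 2261 CPM in polysomal RNA, against 645 and 733 CPM in cytoplasmic RNA in shNTC cells (log2 change 1.41, SE 0.23; edgeR adjusted p = 0.00857). FLNA had 6743 and 8849 CPM in polysomal RNA, against 2471 and 2738 CPM in cytoplasmic RNA in sheIF6 cells (log2 change 1.58, SE 0.28; edgeR adjusted p = 0.0103) and 7129.6 and 9618 CPM in polysomal RNA, against 3222 and 3190.2 CPM in cytoplasmic RNA in shNTC cells (log2 change 1.39, SE 0.27; edgeR adjusted p = 0.017). Every polysomal library of these genes exceeded every cytoplasmic library. TNS3 had 181 and 159 CPM in polysomal RNA, against 53.6 and 63.2 CPM in cytoplasmic RNA in sheIF6 cells (log2 change 1.54, SE 0.24; edgeR adjusted p = 0.00669) and a log2 change of 1.36 (SE 0.24) in shNTC cells (0.0108). ITGA3 changed by 1.04 (SE 0.23) in sheIF6 and 1.06 (SE 0.23) in shNTC cells (edgeR adjusted p = 0.0276 and 0.0244). SRC was called in shNTC cells, with 12.9 and 12.6 CPM in polysomal RNA, against 6.0 and 6.14 CPM in cytoplasmic RNA (log2 change 1.07, SE 0.27; edgeR adjusted p = 0.0413), and TLN2 in sheIF6 cells, with 176 and 141 CPM in polysomal RNA, against 49.7 and 49.5 CPM in cytoplasmic RNA (log2 change 1.68, SE 0.40; edgeR adjusted p = 0.0363).

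These calls in H69M depend on single libraries. In shNTC cells 0 of the genes were called without H69M shNTC cytoplasmic replicate 2, and TNS3 alone without polysomal replicate 2. Without cytoplasmic replicate 1 all 5 calls were lost (adjusted p from 0.0515 for TNS3 to 0.162 for SRC) and ITGA7 was called (1.92; 0.045). Of the 5 genes 3 were called without either H69 sheIF6 cytoplasmic library, which enter through the shared estimate of the spread. Without H69M shNTC cytoplasmic replicate 2 the log2 changes were 1.51 for TLN1 (adjusted p = 0.0544), 1.38 for FLNA (0.105), 1.29 for TNS3 (0.0866), 1.10 for ITGA3 (0.119) and 1.09 for SRC (0.168). The call of SRC was lost in 14 of the 22 alternatives, among them total library size scaling (0.81; 0.0967) and no filter on low counts (1.07; 0.09). In sheIF6 cells 1 gene was called without H69M sheIF6 cytoplasmic replicate 1, 2 without H69M sheIF6 polysomal replicate 2, and 3 without H69M sheIF6 cytoplasmic replicate 2, H69M sheIF6 polysomal replicate 1 or either H69 sheIF6 cytoplasmic library. Without H69M sheIF6 cytoplasmic replicate 1 the log2 changes were 1.50 for FLNA (0.0721), 1.42 for TNS3 (0.0546), 1.12 for ITGA3 (0.102) and 1.67 for TLN2 (0.175).

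In H69, ILK and BCAR1 were higher in polysomal RNA in sheIF6 cells and in shNTC cells, and 0 genes were lower in either. Of all genes 5.66% were higher and 4% lower with sheIF6 (9.66% in all), and 6.63% higher and 5.2% lower with shNTC (11.8% in all). ILK, at chr11:6603708-6610874 on the plus strand of GRCh38, had 198 and 112 CPM in polysomal RNA, against 56.7 and 47.1 CPM in cytoplasmic RNA in sheIF6 cells (log2 change 1.58, SE 0.36; edgeR adjusted p = 0.017) and 186 and 131 CPM in polysomal RNA, against 51.2 and 45.6 CPM in cytoplasmic RNA in shNTC cells (log2 change 1.71, SE 0.36; edgeR adjusted p = 0.00983). BCAR1 had 58.3 and 46.6 CPM in polysomal RNA, against 28.0 and 24.1 CPM in cytoplasmic RNA in sheIF6 cells (log2 change 1.01, SE 0.26; edgeR adjusted p = 0.0273) and 63.6 and 53.9 CPM in polysomal RNA, against 31.3 and 29.2 CPM in cytoplasmic RNA in shNTC cells (log2 change 0.96, SE 0.26; edgeR adjusted p = 0.0296). The polysomal libraries lay above the cytoplasmic libraries for both genes with either shRNA. In shNTC cells both calls were lost without H69 shNTC polysomal replicate 1 (ILK 1.44, adjusted p = 0.0713; BCAR1 0.83, 0.153), without cytoplasmic replicate 1 (ILK 1.80, 0.0702; BCAR1 1.01, 0.132) or without cytoplasmic replicate 2 (ILK 1.63, 0.0855; BCAR1 0.91, 0.167). BCAR1 was also lost without polysomal replicate 2 of H69 shNTC cells (1.07; 0.06), where LPP was called (-2.94; 0.0362). ITGA5 was called without cytoplasmic replicate 1 (2.89; 0.0412) and, with the other sign, without cytoplasmic replicate 2 (-2.25; 0.034), where CAV1 was called too (-4.48; 0.0331). In sheIF6 cells both were lost without either H69 sheIF6 cytoplasmic library (ILK 1.72 and 1.45, adjusted p = 0.126 and 0.144; BCAR1 1.12 and 0.91, 0.149 and 0.201), or without polysomal replicate 1 of these cells (ILK 1.11, 0.157; BCAR1 0.84, 0.174), where ITGA1 was called (-7.94; 0.0442). BCAR1 was also lost without polysomal replicate 2 of H69 sheIF6 cells (1.16; 0.0542). BCAR1 was lost under total library size scaling with sheIF6 (0.67; 0.0755) and with shNTC (0.60; 0.094). TAF10, which overlaps ILK, had a log2 change of -0.33 between the fractions of H69 shNTC cells and was not called.

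The median log2 change of the 36 genes between polysomal and cytoplasmic RNA was 0.68 in H69M sheIF6 and 0.54 in H69M shNTC cells (over all genes -0.023 and 0), and 0.23 with sheIF6 and 0.15 with shNTC in H69 (the last over the 35 genes with a value; over all genes -0.11 and -0.14). Under total library size scaling the medians of these genes in H69 were below 0 (-0.09 and -0.18), while all-gene medians moved to -0.44 and -0.49, and in H69M the medians of these genes were 0.54 and 0.27 with all-gene medians of -0.17 and -0.25. Polysomal libraries lay wholly above cytoplasmic ones for 21 genes in H69M sheIF6 (21.2% of all genes) and 15 in H69M shNTC cells (20.8%), and wholly below for 5 (26.2%) and 4 (24.5%). In H69 they lay above for 14 genes with sheIF6 (25.4%) and 10 with shNTC (23%), and below for 8 (34.3%) and 5 (32.3%). The difference between H69M and H69 in this ratio was tested in shNTC cells, where edgeR called 0 of the 36 genes (0% of all genes), 7 had an unadjusted p under 0.05 (9.21% of all genes) and DESeq2 called 1 (1.25% of all genes). That gene was TLN1, whose ratio was higher in H69M by 1.21 (SE 0.32) on the log2 scale (edgeR adjusted p = 0.357; DESeq2 1.22, adjusted p = 0.0424). ITGA3 differed by 0.80 (SE 0.33), FLNA by 1.15 (SE 0.38), TNS3 by 1.08 (SE 0.33) and ILK by -1.15 (SE 0.50), with edgeR adjusted p = 0.489, 0.421, 0.395 and 0.52 in that order. Whether the knockdown changed the ratio was tested within each line: edgeR called 0 genes in H69M and 0 in H69 (0% of all genes in both), 0 and 1 had an unadjusted p under 0.05 (1.7% and 1.66% of all genes), and DESeq2 called 0 in both.

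**Figure D5:**
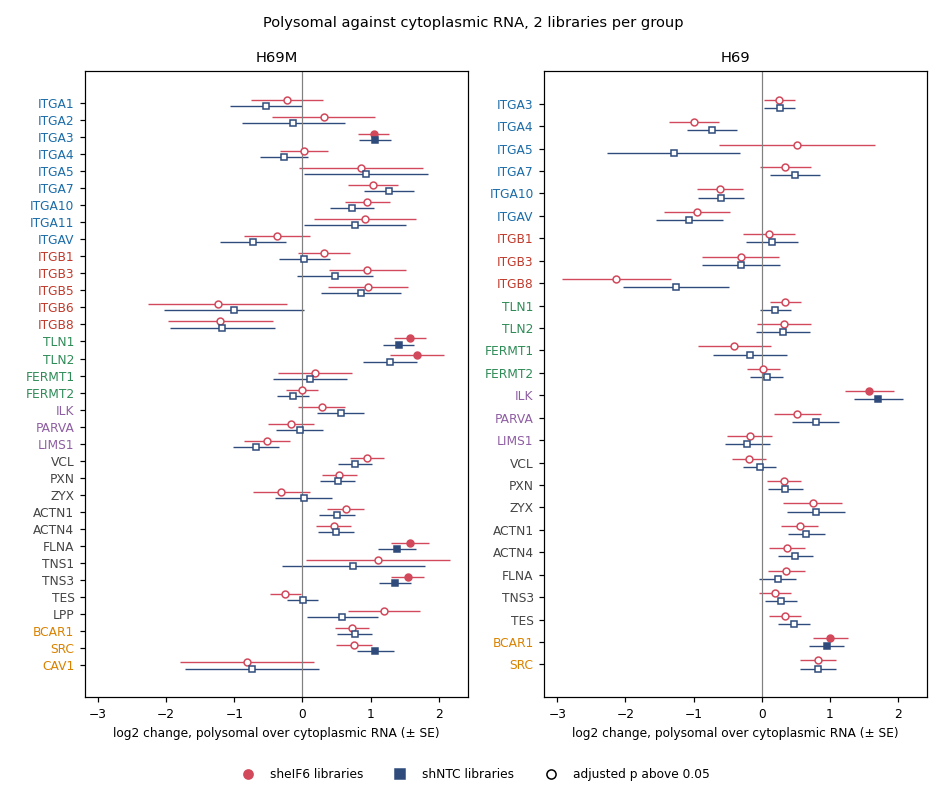
Log2 change of polysomal over cytoplasmic RNA with its standard error for each gene in H69M and H69, with sheIF6 and shNTC libraries drawn side by side. Filled symbols passed an adjusted p of 0.05. TLN1, FLNA, TNS3 and ITGA3 are filled for both shRNAs in H69M, and ILK and BCAR1 for both in H69.

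Genes that work with the integrins were counted in the same way. These lists were also chosen with earlier results of these data known, so their counts are no independent support. The ligands COL1A1, COL1A2 and COL3A1 are among the fibroblast markers as well. Of 29 tested integrin ligands 23 were higher and 0 lower in H69M in shNTC cytoplasmic RNA, while polysomal RNA gave 25 higher and 0 lower. The shares over all genes were 16.2% higher with 14.1% lower (cytoplasmic) and 18.4% higher with 15.6% lower (polysomal). The 4 largest cytoplasmic changes were those of COL1A1 (collagen I), with 6274 and 9404 CPM in H69M, against 2.93 and 0.880 CPM in H69 (log2 change 12, SE 0.81), COL6A2 (collagen VI), with 243 and 272 CPM in H69M, against 0.390 and 0 CPM in H69 (log2 change 10.34, SE 1.01), FBN1 (fibrillin-1), with 732 and 1171 CPM in H69M, against 0.839 and 1.24 CPM in H69 (log2 change 9.84, SE 0.63), and MFGE8 (a ligand of ITGAV pairs), with 203 and 235 CPM in H69M, against 0.468 and 0.220 CPM in H69 (log2 change 9.30, SE 1.08). None of these ligands exceeded 3 CPM in an H69 library of this comparison. Of 58 other adhesion complex genes 34 were higher and 4 lower in H69M in cytoplasmic RNA, while polysomal RNA gave 33 higher and 2 lower. CALD1 (caldesmon), MYL9 (a myosin light chain), TGFB1I1 (Hic-5, a paxillin relative) and DLC1 (a GTPase-activating protein of focal adhesions) rose by 10.80, 9.40, 9.05 and 8.84 on the log2 scale in cytoplasmic RNA. PAK1 (a kinase downstream of Rac) was lower, with 29.8 and 21.5 CPM in H69M, against 122 and 91.2 CPM in H69 (log2 change -2.06, SE 0.29; edgeR adjusted p = 0.0002), and so were PARVG and FYN, whose calls were lost without H69 shNTC cytoplasmic replicate 1 (adjusted p = 0.0797 and 0.0766 in this order). PARVG was also lost without H69M shNTC cytoplasmic replicate 1 (0.121) or replicate 2 (0.107), and leaving out the other H69 library of this group (0.0612) or H69 sheIF6 cytoplasmic replicate 2 (0.051) ended its call too. Without H69 shNTC cytoplasmic replicate 1 the change of COL6A2 was 16.55 and that of MYL9 14.32. In the knockdown edgeR called 0 genes of either list in any setting (0% to 0.156% of all genes). The order below is H69M polysomal, H69M cytoplasmic, H69 polysomal and H69 cytoplasmic RNA. An unadjusted edgeR p under 0.05 was reached by 1, 2, 4 and 7 ligands. For the other genes these were 12, 14, 3 and 2, beside 8.15%, 11%, 4.14% and 3.01% of all genes. DESeq2 called 1, 1, 0 and 1 ligands and 3, 5, 2 and 1 other genes, all lower with sheIF6. Its shares of all genes were 1.85%, 2.65%, 0.494% and 0.382%. In polysomal over cytoplasmic RNA 5 ligands were higher in H69M sheIF6 cells (FBN1, LAMA5, LAMB2, LTBP1 and TNC) and 1 in H69M shNTC cells (LAMB2, a laminin chain), beside 1.91% and 2.16% of all genes. In H69 shNTC cells 1 ligand (FBN1) was lower (5.2% of all genes). Of the other adhesion genes MYH9 (a nonmuscle myosin heavy chain) was among those higher in polysomal RNA of H69M with both shRNAs, and in H69 7 of 58 were higher with sheIF6 (5.66% of all genes) and 8 with shNTC (6.63%).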

How the data were processed

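RNA bound to polysomes and cytoplasmic RNA of H69M and H69 cells with sheIF6 or shNTC were sequenced from libraries made with the NEBNext Ultra RNA kit, per the labels' protocols. The deposited files hold raw read counts per gene name. STAR, HTSeq and build GRCh38 are named in the submitters' processing notes, and their versions and strand setting are not given in the sources used here. The members and all gene lists were chosen with earlier results of these data known.

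The counts were scaled by edgeR's TMM, filtered with filterByExpr (minimum count 10) and fitted with edgeR 4.0.16 (glmQLFit, robust, and glmQLFTest) in R 4.3.3, with 1 mean for each of the 8 groups over all 16 libraries. P-values were adjusted after Benjamini and Hochberg over 23100 genes, with a limit of 0.05. The standard error of a log2 change was its size divided by the square root of its F value. Differences between changes were tested as interactions in the same fit. CPM are counts scaled to a common total of the TMM-scaled library size, and levels per length divide them by the exon length in the GENCODE annotation. A group at 0 was given a floor of 3 counts over the group, and intervals and floors cover counting error only. The fit was checked on simulated counts. Totals ran from 36005326 to 87269772 counts, and replicates differed by more than sampling noise (chi-square per degree of freedom 22.3 to 219).

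Named were the members called in a comparison, up to 6 by size in each role and direction, members that went against their role, up to 4 called genes of each other list, and EIF6; members named after their values were seen are marked. Alternatives were RLE scaling, total library size scaling, no filter, DESeq2 1.42.0, 2 replicate blocks and leaving out each library. Some genes of the other lists are not reported here.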

Additional observations from a re-analysis of the deposited data

How the results depend on the processing

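The 133 called changes of the genes over all comparisons were recomputed under 22 alternatives each. Of the 2926 values 2823 stayed on the same side of the limit with the same sign, 103 kept their sign and were no longer called, and 0 changed sign. Most alternatives left out a library that was not part of the comparison. Such a library acts only through the shared filter, scaling and spread. These totals therefore say little on how a call depends on the libraries of its own groups. Leaving out each library in turn gave 28 to 31 called genes for H69M over H69 in shNTC cytoplasmic RNA, 28 to 30 in shNTC polysomal, 26 to 28 in sheIF6 cytoplasmic and 27 to 31 in sheIF6 polysomal RNA. It gave 0 to 2 for the knockdown in H69 cytoplasmic RNA and 0 in the other 3 settings. For polysomal over cytoplasmic RNA it gave 1 to 6 in H69M sheIF6, 0 to 5 in H69M shNTC, 0 to 3 in H69 sheIF6 and 0 to 2 in H69 shNTC cells, and 0 for each difference between such changes. DESeq2 called 1 gene for the knockdown in H69M cytoplasmic and 2 in H69M polysomal RNA. For polysomal over cytoplasmic RNA DESeq2 called 10 genes in H69M sheIF6, 9 in H69M shNTC, 5 in H69 sheIF6 and 4 in H69 shNTC cells (14.2%, 17.6%, 18.6% and 21.5% of all genes), and 1 for the difference between lines. Total library size scaling called 1 in H69 shNTC cells. The cause of these differences was not tested.

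The labels do not state that equal replicate numbers pair libraries. Deviations from group means of libraries with the same number correlated at 0.168 to 0.578 across genes between the groups of 1 line (12 pairs of groups) and at -0.107 to 0.0457 between lines (16). Over the 36 genes alone they ran from -0.0584 to 0.919 within a line and from -0.0751 to 0.244 between lines. The highest was that of H69M shNTC cytoplasmic with H69M shNTC polysomal RNA. The main fit holds no such pairing. With a replicate block within line, 1 gene was called for the knockdown in H69M cytoplasmic and 1 in H69M polysomal RNA (FERMT2 in both, -1.25 and -1.12, edgeR adjusted p = 0.0244 and 0.0475; 1.16% and 0.879% of all genes). With this block 7 genes were called for polysomal over cytoplasmic RNA in H69M sheIF6, 8 in H69M shNTC, 5 in H69 sheIF6 and 5 in H69 shNTC cells. The shares of all genes were 9.35%, 11.1%, 15.6% and 18.9% in the same order. Between the lines this block ended 0 calls and added FERMT1, ITGA9 and SRC in shNTC and ITGA9, ITGB3, PXN, ILK and ITGB6 in sheIF6 RNA, each in 1 fraction but FERMT1, with an error that leaves out the spread between the replicates of a line. ITGA9, ITGB6 and ITGB7 stayed under 3 CPM in every library, as did ITGA1, ITGA2 and ITGA11 in H69 libraries, so their fitted changes rest on few counts.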
